A study of Homo sapiens with 6 samples.

Results

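The regions described here are the ATAC-seq peaks of vehicle-treated thyroid cells that were missing from both lists of hormone-treated cells. A vehicle peak was a member when no peak of the T3 6 h list and none of the T3 24 h list overlapped it by at least 50% of the shorter peak. On chromosomes 1 to 22 and X, 3858 of 6811 vehicle peaks met this rule, a share of 56.6% (exact 95% interval 55.5 to 57.8%), out of 80149 peaks in the 3 lists together. The remaining 2953 vehicle peaks comprised 783 shared with the T3 24 h list alone, 727 shared with the T3 6 h list alone and 1443 found in all lists. The members were thus chosen by presence in these same lists, so their number, strength and width are given as descriptions without a test.

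The cells were Nthy-ORI, an immortalised human line derived from normal thyroid epithelium. All groups were first starved of hormone for 24 h in phenol-red free medium with charcoal-stripped serum, and nuclei of 50000 cells were used per sample. The 6 samples formed 3 groups of 2: NaOH vehicle (labelled 6 h), T3 at 10 nM for 6 h, and T3 at 10 nM for 24 h. No vehicle sample at 24 h was analysed here. The question of the series concerns the thyroid hormone receptor TRβ, chromatin accessibility and SWI/SNF remodellers.

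ATAC-seq uses the Tn5 transposase, which cuts and tags DNA where no nucleosome or other protein blocks it, and a peak is a stretch with more cuts than its surroundings. T3 is the active thyroid hormone, and its nuclear receptors sit on DNA with and without ligand, exchanging corepressors for coactivators when T3 binds. Thyroid epithelial cells both make the hormone and carry its receptors. Gene starts and distal enhancers are the usual places of accessible chromatin, and starts rich in CpG dinucleotides are open in most cell types.

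Each group had 1 list of peaks seen in both replicates. Peaks were selected by the irreproducible discovery rate (IDR), which is low where both replicates rank a peak high and alike. In all, 7103 peaks were listed for vehicle, against 12385 for T3 6 h and 60661 for T3 24 h, so the T3 lists differed strongly in length. Read counts are not part of these lists, so the depth is unknown and a region missing from a T3 list is not shown to be closed in T3-treated cells. With 1 list per group no test between conditions could be made, and intervals below cover counting error only. Of 12 thyroid follicular marker genes, including PAX8, TG and TSHR, 0 had a vehicle peak near either end of the gene, against 1 in the T3 6 h list and 6 in the T3 24 h list. Over all protein-coding genes these shares were 1.34% for vehicle, 10.8% for T3 6 h and 60.8% for T3 24 h, so the markers were near the background and do not check the labelled cell type. The labels do not say whether the replicates of a group came from separate cultures.

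Few members lay on gene starts, and the sequences of these starts are shown first to describe their CpG content. Gene starts were represented by 22132 RefSeq windows of GRCh38.p14, each reaching from 250 bases before to 50 bases after a start of a protein-coding gene. Only 19 of them, or 0.0858%, were touched by a vehicle-only peak, and 6 were covered whole. The 250 bases before the start are printed for these 6, each 5′ to 3′ on the strand of its gene, with CpG dinucleotides in capitals.
LCE6A: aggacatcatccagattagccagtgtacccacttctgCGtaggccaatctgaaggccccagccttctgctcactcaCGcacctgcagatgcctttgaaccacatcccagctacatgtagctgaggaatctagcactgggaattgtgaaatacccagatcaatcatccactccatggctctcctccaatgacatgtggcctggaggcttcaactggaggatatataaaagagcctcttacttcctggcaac
BICRAL: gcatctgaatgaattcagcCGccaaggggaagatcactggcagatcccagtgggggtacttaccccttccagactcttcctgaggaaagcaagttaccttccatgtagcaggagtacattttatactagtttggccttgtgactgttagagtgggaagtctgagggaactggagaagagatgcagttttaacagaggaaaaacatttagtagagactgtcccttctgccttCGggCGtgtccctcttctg
WFDC9: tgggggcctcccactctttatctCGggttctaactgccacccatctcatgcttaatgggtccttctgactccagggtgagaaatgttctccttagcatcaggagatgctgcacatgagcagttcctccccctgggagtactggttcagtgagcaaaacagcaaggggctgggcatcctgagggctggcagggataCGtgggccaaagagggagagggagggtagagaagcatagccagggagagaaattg
TSSK1B: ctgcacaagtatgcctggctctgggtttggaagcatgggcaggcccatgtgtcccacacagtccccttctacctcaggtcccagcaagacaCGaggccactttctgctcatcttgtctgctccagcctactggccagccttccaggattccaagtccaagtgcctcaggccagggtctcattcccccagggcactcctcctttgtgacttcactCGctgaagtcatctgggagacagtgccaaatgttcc
AKAP9: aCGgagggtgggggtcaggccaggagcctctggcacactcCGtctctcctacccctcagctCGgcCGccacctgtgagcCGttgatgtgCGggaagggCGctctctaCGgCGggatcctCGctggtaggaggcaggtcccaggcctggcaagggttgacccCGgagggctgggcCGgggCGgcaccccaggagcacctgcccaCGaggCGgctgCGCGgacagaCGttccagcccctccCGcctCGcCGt
ZNF300: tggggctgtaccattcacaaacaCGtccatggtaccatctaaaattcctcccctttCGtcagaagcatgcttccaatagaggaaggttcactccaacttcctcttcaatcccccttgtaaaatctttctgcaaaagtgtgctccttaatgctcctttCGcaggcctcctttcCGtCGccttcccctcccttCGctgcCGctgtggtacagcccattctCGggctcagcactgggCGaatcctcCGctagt
For comparison, 2 wholly covered starts follow, those under the strongest start peaks that vehicle shared with the T3 24 h list alone.
IMMT: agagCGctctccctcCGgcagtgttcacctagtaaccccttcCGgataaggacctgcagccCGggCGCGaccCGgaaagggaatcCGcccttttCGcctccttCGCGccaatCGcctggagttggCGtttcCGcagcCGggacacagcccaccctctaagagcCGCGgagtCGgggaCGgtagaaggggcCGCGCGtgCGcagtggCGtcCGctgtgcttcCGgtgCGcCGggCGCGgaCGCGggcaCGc
RNF34: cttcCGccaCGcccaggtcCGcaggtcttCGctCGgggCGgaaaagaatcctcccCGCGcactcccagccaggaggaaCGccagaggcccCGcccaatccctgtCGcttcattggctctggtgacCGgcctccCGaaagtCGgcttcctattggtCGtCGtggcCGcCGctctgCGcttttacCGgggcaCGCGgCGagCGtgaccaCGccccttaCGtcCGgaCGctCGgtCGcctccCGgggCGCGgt

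The stretches under LCE6A, BICRAL, WFDC9 and TSSK1B held 2, 3, 2 and 2 CpG dinucleotides in 250 bases, against 33 in each of IMMT and RNF34. The comparison pair is not typical of its class. Their whole windows held 41 and 35, above the upper quartile of 29 for windows under peaks of vehicle and 24 h. LCE6A codes for a protein of the cornified envelope of skin, WFDC9 for a protein with a WAP domain, and TSSK1B for a testis-specific kinase. BICRAL is a subunit of the non-canonical SWI/SNF complex, and the window shown is a start inside the gene. AKAP9, a scaffold that anchors protein kinase A at the centrosome and Golgi, had 21 CpG dinucleotides there, and ZNF300, a zinc finger gene, had 10. IMMT organises the inner mitochondrial membrane and RNF34 is a ubiquitin ligase. The stretches lie at chr1:152842606-152842855, chr6:42820806-42821055, chr20:45631285-45631534, chr5:113434990-113435239, chr7:91940612-91940861 and chr5:150904981-150905230 for the members, in the order shown, and at chr2:86195463-86195712 and chr12:121399868-121400117 for the comparison pair (hg38).

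Over whole 300-base windows, the 19 starts under vehicle-only peaks had a median of 9 CpG dinucleotides, with quartiles of 3 and 30. The 105 start windows under peaks of vehicle and 24 h had a median of 24 (quartiles 17 and 29), the 3 under peaks of vehicle and 6 h had 7, the 98 under peaks in all lists had 23, and all 22132 windows had 21. Fewer than 10 CpG dinucleotides were found in 10 of 19 windows under vehicle-only peaks (52.6%, interval 28.9 to 75.6%), against 11.7% of the 206 windows under other vehicle peaks (7.61 to 16.8%) and 29.9% of all windows, a share that lies within the first interval. Windows at the low end included HEPACAM2, PCDHGA2, EIF4G3, OR1L4 and SIGLECL1, between 1 and 5, and those at the high end SCARB2 and FAM47E at 44, SMIM14 and HNRNPLL at 33 and NIPBL at 30. Some windows were reached only at the edge, at either end of this range. The peak covered 24 of 300 bases of the SCARB2 window, 61 of SMIM14, 142 of NIPBL and 221 of HNRNPLL, and 30 of OR1L4, 97 of EIF4G3 and 144 of HEPACAM2. The rule removed from the members any start peak shared with the T3 24 h list. That list had a peak at the ends of 60.8% of protein-coding genes. The lower CpG counts than in the classes that include 24 h are therefore descriptions.

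**Figure D1:**
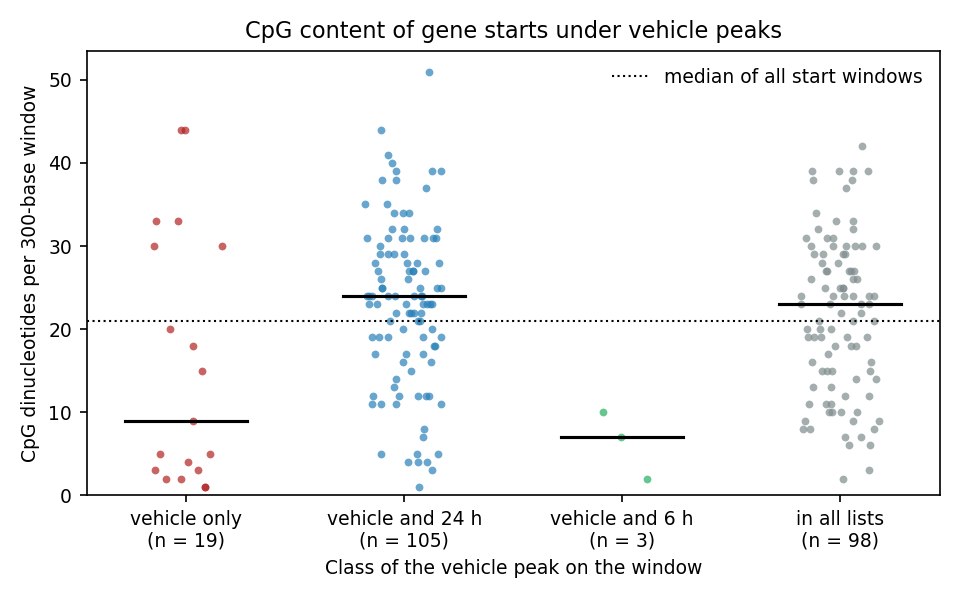
CpG dinucleotides per 300-base start window (vertical axis) for windows touched by a vehicle peak, by class of the peak. Each point is a window, bars are medians and the dotted line is the median of all windows, 21. Windows under vehicle-only peaks spread from 1 to 44 with a median of 9, against medians of 24 for vehicle and 24 h and 23 for peaks in all lists. Classes were set by presence in the T3 lists, so these medians are descriptions.

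Short motifs were counted in the same windows on both strands, with matches allowed to overlap one another. AGGTCA, the half-site bound by thyroid hormone receptors and other nuclear receptors, was in 0 of 19 windows under vehicle-only peaks (interval up to 17.6%), against 14.1% under other vehicle peaks and 11.9% of all windows. TATAAA was in 4 of 19 windows (21.1%, interval 6.05 to 45.6%), against 4.85% under other vehicle peaks and 9.46% of all windows. GGGCGG, the core of the SP1 motif, was in 42.1% of member windows (20.3 to 66.5%), against 61.2% under other vehicle peaks and 56.3% of all windows. CCAAT was in 31.6%, against 40.8% and 34.6%, and TGANTCA, the AP-1 form, was in 0 of 19, against 8.74% and 6.15%. With 19 windows these intervals are wide, and for all 5 motifs they include the share of all windows.

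Vehicle-only peaks were scarce at gene ends. A peak counted as lying at a gene end when the mean of both replicate summits was at most 1 kb from the start or far boundary of a protein-coding gene. By this measure 60 members were at a gene end, 1.56% of 3858 (1.19 to 2.0%). The share was 12.1% for peaks of vehicle and 24 h (9.93 to 14.6%), 0.825% for vehicle and 6 h (0.303 to 1.79%), 5.61% for peaks in all lists (4.48 to 6.93%) and 2.38% for peaks of the T3 6 h list alone (1.99 to 2.82%). The T3 24 h list itself had a peak at the ends of 60.8% of protein-coding genes, so the rule removes gene-end peaks from the members, and the lower share than in the classes that include 24 h is a description. With the T3 lists shortened to the length of the vehicle list, the vehicle-only share was 2.68%. The interval of the vehicle-only share overlapped that of vehicle and 6 h. The 60 peaks were within 1 kb of the ends of 62 of 19974 protein-coding genes, or 0.31%.

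Where a strand was known, vehicle-only peaks were also less often at the start of the gene than the vehicle peaks shared with the T3 24 h list. The rule removed start peaks shared with the T3 24 h list, so this difference and those below are descriptions. No strand was known for 17 of 62 member pairs (27.4%), against 13 of 109 for vehicle and 24 h (11.9%). Pairs within 1 kb of both ends counted as at the start. Of 45 pairs of a vehicle-only peak and a gene end with a known strand, 21 were at the start (46.7%, interval 31.7 to 62.1%). The share was 91.7% for vehicle and 24 h (88 of 96 pairs), 93.4% for peaks in all lists (71 of 76), 20% for vehicle and 6 h (1 of 5, interval 0.505 to 71.6%) and 90.4% for all other vehicle peaks together (85.1 to 94.3%). Counted directly on the start windows, 18 members touched one (0.467%, interval 0.277 to 0.736%), against 10.7% of vehicle and 24 h peaks, 0.413% of vehicle and 6 h peaks and 4.78% of peaks in all lists.

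Most members lay in gene bodies, between genes or in stretches without any annotated gene. The longest stretch between RefSeq genes of any kind was taken on each chromosome and is called the annotation gap. It was from 2.16 to 21.7 Mb long and on most chromosomes lies at the centromere, where the sequence is made of tandem repeats. These gaps, a choice made after the positions had been seen, make up 5.42% of the 3030 Mb spanned and held 1118 vehicle-only peaks (29.0%, interval 27.6 to 30.4%). Both lengths are spans, from which bases without assembled sequence were not subtracted. A further 1090 members were in gene bodies (28.3%), 901 outside genes within 100 kb of a gene end (23.4%) and 689 farther away (17.9%).

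The share in annotation gaps was lower for vehicle-only peaks than for vehicle peaks that any T3 list shared, at 44.3% (42.5 to 46.1%). It was 17.1% for vehicle and 24 h, 64.0% for vehicle and 6 h, 49.1% for peaks in all lists and 4.07% for peaks of the T3 6 h list alone. Of all peaks listed, 35.6% were in gaps for vehicle, 12% for T3 6 h and 1.75% for T3 24 h. Vehicle-only peaks numbered 6.80 per Mb inside gaps and 0.956 per Mb outside, and the other vehicle peaks 7.95 and 0.574. These rates are per Mb spanned, including any bases without assembled sequence, where no peak can be called. Whether reads that align to several places were kept, and whether such regions were masked, is not given in the sources used here, and the part of either in these counts was not tested.

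Outside the gaps, vehicle-only peaks lay inside protein-coding genes about as often as other vehicle peaks. Of 2740 such members, 41.1% were inside a gene, gene ends included (39.2 to 42.9%), against 42.3% of other vehicle peaks (39.9 to 44.7%) and 41.2% of the T3 6 h list alone (39.8 to 42.5%). Genes cover 44.0% of the sequence there. The median distance from a member to the nearest other member was 227546 bp there, against 11715 bp inside gaps. Gene ends took 2.19% (1.68 to 2.81%), against 14.6% for vehicle and 24 h, 2.29% for vehicle and 6 h, 11% for peaks in all lists and 2.48% for the T3 6 h list alone. Members lay beyond 100 kb of a gene end in 25.1% of cases (23.5 to 26.8%), against 14.6% for vehicle and 24 h (12 to 17.6%), 34.4% for vehicle and 6 h (28.6 to 40.4%), 18.8% for peaks in all lists (16.0 to 21.8%) and 23.7% for the T3 6 h list alone (22.5 to 24.9%).

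**Figure D2:**
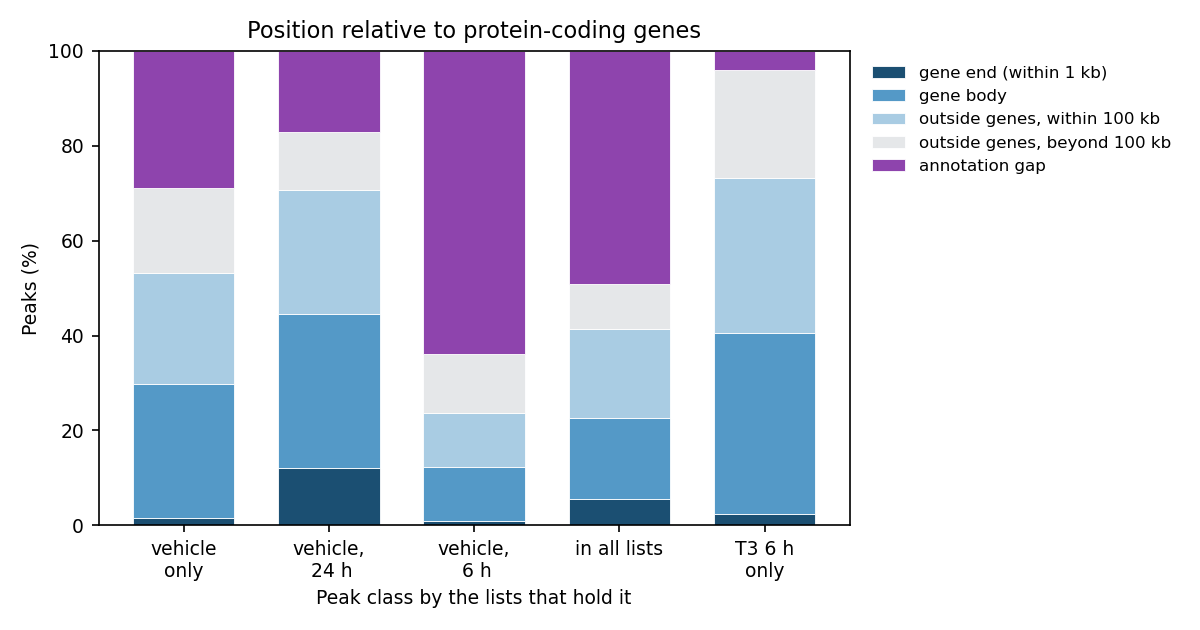
Share of peaks (vertical axis, %) by position relative to protein-coding genes, for vehicle-only peaks, the other classes of vehicle peaks and the peaks of the T3 6 h list alone. Gene ends make up 1.56% of vehicle-only peaks and 12.1% of vehicle and 24 h peaks, and annotation gaps 29.0% of vehicle-only peaks, 64.0% of vehicle and 6 h peaks and 4.07% of T3 6 h only peaks.

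The members were weak peaks. The authors' signal adds up the values of both replicates, and in vehicle-only peaks it ran from 8.21 to 53.2 with a median of 9.53 (quartiles 8.94 and 10.5). The median was 9.71 for vehicle and 24 h, 10.7 for vehicle and 6 h and 12.3 for peaks in all lists. In the first replicate column the median was 4.65 for members and 5.36 for other vehicle peaks, and in the second 5.09 and 5.81. When the vehicle list was ordered by signal and divided into deciles, 71.5% of the weakest decile was vehicle only, then 36.4% of decile 9 and 8.50% of the strongest, where 58 members remained (6.52 to 10.9%). Ranked by either replicate column alone, 96 members were in the strongest decile in place of 58. Ranked by the sum, the share there was 8.52% inside the gaps and 8.47% outside them.

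**Figure D3:**
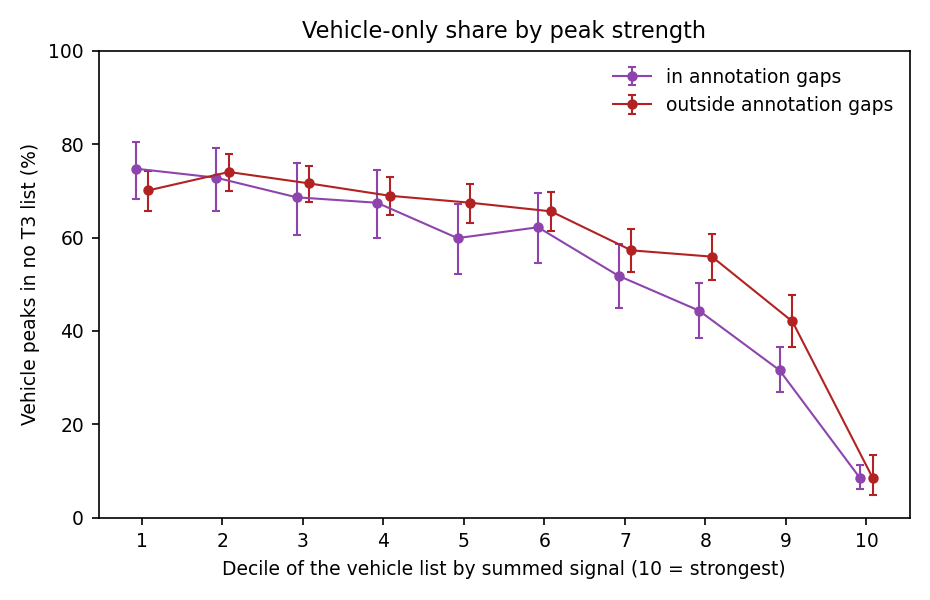
Share of vehicle peaks in no T3 list (vertical axis, %) by decile of the vehicle list, ordered by summed signal with the strongest at 10. Bars are exact 95% intervals for counting error and do not cover the change when 1 replicate column ranks the peaks. Inside and outside the annotation gaps the share fell from above 70% in the weakest decile to 8.52% and 8.47% in the strongest.

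The replicates located members less sharply than other vehicle peaks. Replicate summits lay a median of 220 bp apart in vehicle-only peaks, against 225 bp in vehicle and 24 h, 113 bp in vehicle and 6 h and 53 bp in peaks of all lists. They were within 100 bp in 29.5% of members (28 to 30.9%), against 48.7% of other vehicle peaks (46.9 to 50.5%). The share was 33.1% for vehicle and 24 h (29.8 to 36.5%). For the T3 6 h list alone the median was 267 bp and the share 20.8%. Outside the annotation gaps the medians were 249 bp for members, 257 bp for vehicle and 24 h and 239.5 bp for vehicle and 6 h. Peaks in all lists had 155 bp there. Only 15.2% of members had the highest score of 1000, against 45.7% of other vehicle peaks, and an IDR of at most 0.01 was reached by 29.7% and 59.2%. Both measures depend on how high a peak ranks as well as on agreement of the replicates. Median widths were close, at 1280 bp and 1302 bp.

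Across peaks, the signals of both replicates had a Spearman correlation of -0.40 in the 3858 members and of 0.39 in the 2953 other vehicle peaks. Among those it was -0.30 for vehicle and 24 h, 0.21 for vehicle and 6 h and 0.66 for peaks in all lists, and it was -0.57 for the T3 6 h list alone. These peaks share their libraries and were selected on both columns, so that a peak low in both could not be listed. The correlations are therefore descriptions. A ratio above 2 between replicates was seen in 272 members (7.05%), against 164 other vehicle peaks (5.55%).

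**Figure D4:**
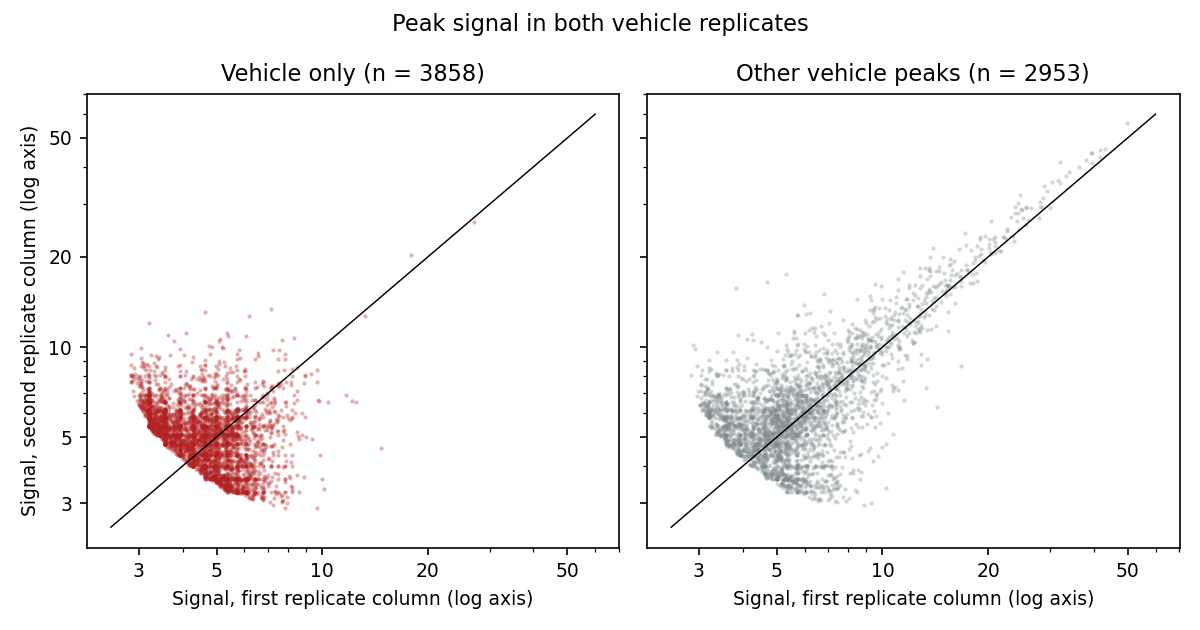
Signal of each vehicle peak in the first (horizontal) and second (vertical) replicate column, both on log axes, for 3858 vehicle-only peaks and 2953 other vehicle peaks. The line marks equal signal. Members form a cloud with an empty lower left corner, and few of them extend along the line to high values, which many of the other peaks do.

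Members inside the gaps were more sharply located than those outside. Their replicate summits lay a median of 121 bp apart inside, against 249 bp outside, and 47.1% and 22.3% were within 100 bp. The score of 1000 was reached by 22.3% inside and 12.4% outside. Median signals were 9.71 inside and 9.44 outside. The other vehicle peaks showed the same contrast, with summits a median of 24 bp apart inside and 218 bp outside. Of these, 67.9% inside and 33.5% outside had summits within 100 bp, and 64.8% and 30.5% had the score of 1000.

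The strongest member lay between genes on chromosome 7. The peak at chr7:45251994-45252330 had signals of 27 and 26.2 in the replicates, summing to 53.2, with summits 2 bp apart and a width of 337 bp. Its nearest gene end was that of RAMP3, an accessory protein of calcitonin-family receptors, 67789 bp away, and the nearest T3 24 h peak was 7599 bp away. The next, at chr5:123761005-123761328, had 17.9 and 20.3 with summits 12 bp apart, and lay 144245 bp from CSNK1G3, a casein kinase gene. Both were narrow peaks with replicates in close agreement, in contrast to the typical member.

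The remaining 8 of the 10 strongest members away from gene ends were all in annotation gaps, on chromosomes 2, 6, 15, 17 and 18. The highest of them, at chr17:26299422-26299653, had 13.2 and 12.7, and the others summed to between 18.6 and 20.6. Some of these had unequal replicates, such as chr2:92503220-92508317 with 14.7 and 4.61 and summits 3351 bp apart.

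Outside the gaps and within 100 kb of a gene, the next strongest members were chosen after their values were seen. A peak 14574 bp from SCGB1C2, a secretoglobin gene, had 7.54 and 9.77. One inside CEP72, a centrosomal protein gene, had 7.23 and 9.74, and one inside INPP4A, a phosphoinositide phosphatase gene, had 9.73 and 6.67. Peaks in ANKDD1A and ERC1 summed to 16.3 and 16.2. The peak near LAT, an adaptor of T cell receptor signalling, had 8.15 and 7.47. The peak in GOLGA8B had unequal replicates, at 4.10 and 11.1, with summits 1686 bp apart.

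At gene ends the strongest member was inside TGM6, a transglutaminase gene, at chr20:2432002-2434028, with 6.73 and 6.78 and summits 157 bp apart. The peak near the far end of ZNF736, a zinc finger gene, at chr7:64357148-64359635 had 6.02 and 7.27 with summits 20 bp apart. Peaks at the starts of PCDHB4 and PCDHA8, clustered protocadherins that give neurons their adhesive identity, had 5.71 and 6.90, and 4.89 and 7.27. These 4 were the highest of the 60, and each still summed to less than 14.9, the lower limit of the strongest decile of the vehicle list.

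The peak before the start of NIPBL, the loader of cohesin, had 7.50 and 4.49 with summits 1100 bp apart. Peaks at the far ends of PYM1, which recycles the exon junction complex, and ACTN4, an actin crosslinker, summed to 11.8 and 11.5, the ACTN4 peak lying inside the neighbouring CAPN12. At starts, the peak of LYG2, a lysozyme-like gene, had 4.62 and 6.94, that of DYRK4, a kinase, 5.78 and 5.70, and that of LRRC18 inside WDFY4 had 5.46 and 5.97. Among the gene-end peaks with the highest score, summits were closest at TAS2R60, a bitter taste receptor gene, with 5.49 and 5.42 at 8 bp. GPR152, an orphan receptor gene, had 4.52 and 6.90 at 157 bp.

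No member of the lists of hormone, thyroid and remodeller genes had a vehicle-only peak at a gene end. The counts were 0 of 26 thyroid hormone response genes, 0 of 21 genes of the hormone signalling machinery, 0 of 12 thyroid follicular markers, 0 of 27 SWI/SNF subunits, 0 of 20 AP-1 and immediate early genes and 0 of 21 housekeeping genes. It was also 0 for epithelial, C cell, fibroblast, endothelial and immune markers and for 40 long neuronal adhesion and synapse genes. All protein-coding genes together had 0.31%. Among gene families, clustered protocadherins had 3 of 53 (5.66%, PCDHB4, PCDHA8 and PCDHGA2), taste receptors 1 of 28, zinc finger ZNF genes 4 of 517 (0.774%) and olfactory receptors 1 of 392 (OR1L4).

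Assigned to the nearest gene end within 100 kb, members fell to 1628 protein-coding genes, or 8.15% of them, most with 1 peak. Of the thyroid hormone response genes 5 of 26 were nearest (19.2%). The peak near G6PC1, the catalytic subunit of glucose-6-phosphatase, had 4.84 and 5.44, and that near PPARGC1A, a coactivator of mitochondrial biogenesis, had 3.42 and 5.86. Peaks near SHBG, which carries sex steroids in blood, and ATP2A2, the calcium pump of the sarcoplasmic reticulum, summed to 9.16 and 8.57. None of these 4 peaks summed to more than 10.3.

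Of the SWI/SNF subunits 5 of 27 were nearest (18.5%). Further counts were 1 of 21 for the hormone signalling machinery (4.76%), 2 of 12 for thyroid markers (16.7%), 0 of 20 for AP-1 and immediate early genes, 0 of 21 for housekeeping genes and 8 of 40 for long neuronal adhesion and synapse genes (20%). C cell and endothelial markers had 1 of 4 each (25%), fibroblast markers 1 of 6 (16.7%), and epithelial and immune markers 0. Among families, POTE genes had 6 of 13 (46.2%) and clustered protocadherins 6 of 53 (11.3%). Shares were 8.12% for zinc finger ZNF genes, 7.14% for taste receptors, 4.08% for olfactory receptors, 1.82% for keratins and 1.06% for keratin-associated proteins. The BICRAL peak shown above had unequal replicates, at 8.57 and 3.27. BICRA, its paralogue in the same complex, had 5.64 and 5.01, DPF3, a histone reader, 4.50 and 5.49, SMARCA4, the ATPase BRG1, 3.24 and 5.73, and BCL7A 4.93 and 3.70. All 5 peaks were inside a protein-coding gene, and those of BICRAL, BICRA and SMARCA4 were inside the gene named. For DPF3 and BCL7A it was not checked which gene held the peak. Of the thyroid markers, FOXE1, a thyroid transcription factor, had a peak of 3.01 and 6.46 at 17708 bp, with a T3 6 h peak 1288 bp and a T3 24 h peak 1479 bp from it. The lists are small and were compared with the background as counts only.

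No gene stood out by its number of members. LOC107985915, RNF32, CCDC91 and PLCB1 had 4 each, and WDR26, the first in order among 23 genes with 3, was next. By the same assignment, RNF32 had 4 peaks in the T3 6 h list and 8 in the T3 24 h list, and PLCB1 had 3 and 7. Of the peaks assigned to LOC107985915, 3 lay in the gap of chromosome 2. At PLCB1, a phospholipase C gene, the 4 peaks summed to between 8.67 and 10.1. At RNF32, a ring finger gene, they summed to between 8.49 and 12.1. Inside gene bodies, CNTNAP2, a neuronal adhesion gene of 2304 kb, held 6 members, and BBS9 and PLCB1 held 5. The 971 host genes had a median length of 134 kb, against 24.2 kb for all protein-coding genes. Longer genes take more of any scattered positions, and host lengths of the other peak classes are not given here. The difference therefore shows no preference of members for long genes.

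Members also covered 4 microRNA hairpins (0.104% of members). The peak over MIR4708 had 5.33 and 5.62, that over MIR378G 5.46 and 4.14, that over MIR1976 4.59 and 4.44, and that over MIR1324 4.51 and 3.82. The other vehicle peaks covered 3 (0.102%), a share close to that of the members.

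In fixed windows of 1 Mb, the 5 with most members all held no protein-coding gene and touched an annotation gap. The windows chr2:92000001-93000000 and chr2:93000001-94000000 held 70 members each, with 51 and 17 other vehicle peaks. The window chr10:40000001-41000000 held 46 with 74 others, chr1:123000001-124000000 held 45 with 148 others and chr12:35000001-36000000 held 39 with 15 others. Together they had 270 members. Outside gaps the fullest window, chr3:90000001-91000000, held 18 with 3 others, and it too had no protein-coding gene. It lies near the gap of chromosome 3, which starts at 91513776. Outside gaps means only outside the longest gene-free stretch, so repeat sequence elsewhere was not set apart.

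Chromosomes differed in both number and share. Outside gaps, vehicle-only peaks were densest on chromosome 20, with 2.55 per Mb, then on 7 with 2.0, 22 with 1.90, 5 with 1.7 and 10 with 1.66. They were sparsest on X, with 0.139. Across 23 chromosomes this density went with that of other vehicle peaks (Spearman 0.87), of the T3 6 h list (0.91) and of the T3 24 h list (0.73). These points come from the same cell line, and the lists being compared share its chromosomes, so the values are descriptions. Also outside gaps, the share of vehicle peaks that were vehicle only ran from 38.9% on X (25.9 to 53.1%) to 75.4% on chromosome 15 (67.1 to 82.5%). With gap peaks included, chromosome 1 had the lowest share, 36.5%, against 59.9% without them. The gaps of chromosomes 14, 21 and 22 held 0 vehicle peaks, so every vehicle peak of these chromosomes counts as outside. These gaps start at 480023, 498025 and 412369, close to the chromosome start. Whether they hold assembled sequence or span the centromere was not checked. The densities of these chromosomes, including the 1.90 of chromosome 22, are therefore not directly comparable with the rest.

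**Figure D5:**
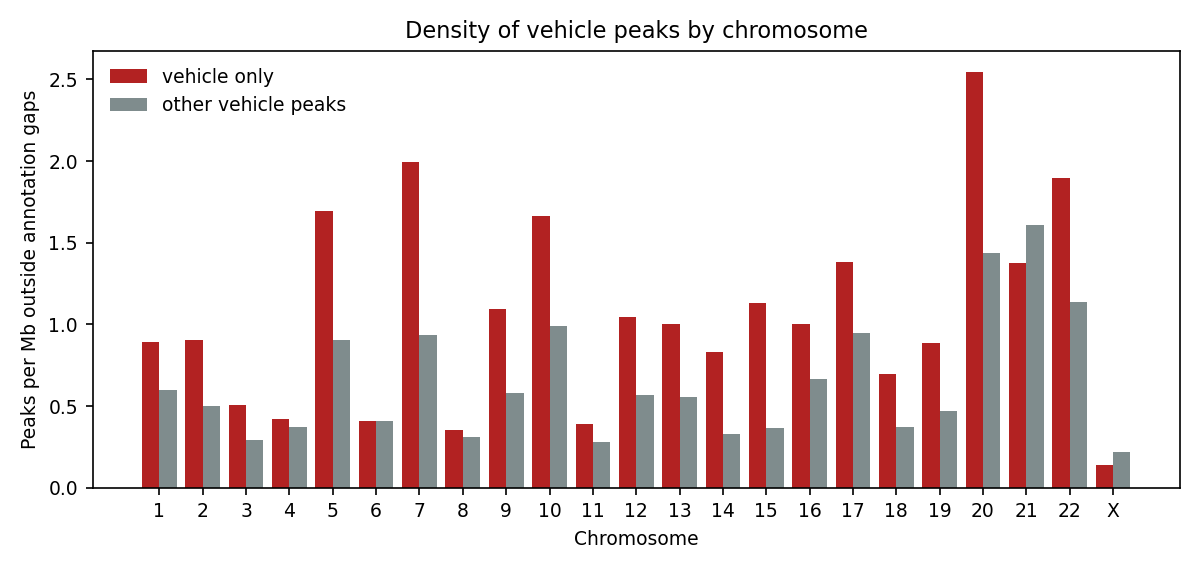
Peaks per Mb outside annotation gaps (vertical axis) on each chromosome, for vehicle-only and other vehicle peaks. Vehicle-only density is highest on chromosome 20, at 2.55, and lowest on X, at 0.139, and chromosomes 5, 7, 10 and 22 also stand above their neighbours. On chromosomes 14, 21 and 22 the gap held no vehicle peak, so all of theirs are counted here.

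Distances from members to T3 peaks depend on how many peaks a list holds, and no random placement was made for comparison. The median distance was 44840.5 bp to the nearest T3 6 h peak and 19065.5 bp to the nearest T3 24 h peak, which is the longer list. A T3 peak of either list lay within 1 kb of 268 members (6.95%), within 10 kb of 1639 (42.5%) and within 100 kb of 3611 (93.6%). Inside gaps the order was turned, with medians of 11893.5 bp to the T3 6 h list and 40030 bp to the T3 24 h list.

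Few members depended on the overlap limit. Of 3858, 3785 touched no T3 peak and 73 did so by less than 50%. Just inside the rule were the NIPBL peak, with 49.6% overlap by a T3 24 h peak, chr3:93495744-93496159 with 49.3% at 6 h, and a peak near ZC3H18 with 48.9% at 24 h. Just outside it were peaks near MATCAP2, NPY and CFAP46, with 50.4%, 50.6% and 51.1%, all at 24 h. Overlaps from 40 to 50% were seen for 19 members and from 50 to 60% for 38 vehicle peaks outside the rule.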

How the data were processed

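The 6 ATAC-seq samples are represented by 3 deposited peak lists, each combining the replicates of 1 group. Bowtie2, MACS2, DiffBind, Trim Galore, CASAVA 1.7 and the build hg38 are named, without settings, in the submitters' processing notes. How Tn5 cuts, duplicates and multi-mapping reads were treated, and whether regions were masked, is not given in the sources used. As deposited, the score is an IDR rescaled to between 540 and 1000, and the deposited −log10 of the IDR corresponds to at most 0.05 for every peak. The deposited signal adds up the values of both replicates, its normalization is not stated, and signals were compared only within the vehicle list. Replicate columns carry no sample number, so they are called first and second.

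Overlaps, positions and shares were computed in scipy 1.17.1, pandas 2.3.3 and numpy 2.4.6 under Python 3.11.15, and figures with matplotlib 3.10.9. The overlap code was tested on simulated data and checked against bedtools 2.31.1. A T3 peak had to overlap by at least 50% of the shorter peak. Positions were the mean of both replicate summits. Genes, start windows and hairpins came from RefSeq tables of GRCh38.p14, with 19974 protein-coding genes matched by position. The gene table has no strand, so strand came from the start windows where they hold the gene. Shares carry exact Clopper-Pearson 95% intervals for counting error only. Peaks on unplaced scaffolds were left out of the comparisons.

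Named were the 10 strongest members at gene ends and the 10 strongest elsewhere, the 5 genes and the 5 windows of 1 Mb with most members, the 5 gene-end members with the highest score and closest summits, up to 4 genes per list and 3 peaks on each side of the overlap limit. Nearest-gene peaks of 2 list genes are not reported here. Sequences are of start windows covered whole by a peak. The members and lists were chosen with earlier results of these data known. Alternatives changed the overlap rule, the IDR limit, list length, window, summit agreement and the annotation gaps.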

Additional observations from a re-analysis of the deposited data

Results flagged for a closer look

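On unplaced and unlocalised scaffolds, which the comparisons above do not use, the vehicle list held 259 peaks on 91 scaffolds. Of these, 86 were in no T3 list by the same overlap rule, a share of 33.2%, against 56.6% on chromosomes 1 to 22 and X. They were set apart because they are signal in data outside the main measurement.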

How the results depend on the processing

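The number of vehicle-only peaks, 3858, was 3785 under any overlap, 4314 with 50% of both peaks, 3590 with no T3 peak within 1 kb, 4995 with the T3 lists shortened to the length of the vehicle list and 2740 without gap peaks. It was 1145 at a vehicle IDR of at most 0.01, 1538 with that limit in all lists and 1137 with replicate summits within 100 bp, fewer by construction. The share at gene ends, 1.56%, was 0.648% in a 500 bp window, 2.95% in a 2 kb window, 2.27% at the IDR limit, 2.68% with shortened T3 lists and 2.19% without gap peaks, and 1.56% with either summit column left out. At each window, IDR and summit setting vehicle and 24 h had the highest share, then peaks in all lists, vehicle only, and vehicle and 6 h. Without gap peaks vehicle only stood below vehicle and 6 h, at 2.19% against 2.29%. The median signal of 9.53 was 9.60 with shortened T3 lists, 11.2 at the IDR limit and 9.44 without gap peaks, and 9.30 to 10.2 from 1 replicate column doubled. The median width of 1280 bp was 1089 with close summits, 1487 at the IDR limit and 1299 without gap peaks, and the summit distance of 220 bp was 185 at the IDR limit and 249 without gap peaks. Ranked by either replicate column alone, 96 members were in the strongest decile, against 58. Genes of the lists with a gene-end peak numbered 14 in a 2 kb window, against 9. The share in gaps, 29.0%, was 27.1% with gaps between protein-coding genes, 37.2% at the IDR limit and 46.4% with close summits. Where not by construction, the cause was not tested. The annotation gaps were an alternative added after seeing the data. No paired analysis was possible because the replicate columns carry no number and each group has 1 list. Depth is unknown, which limits every statement on absence.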

Other observations

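Many members shared the same signal values. In the first replicate column 148 vehicle-only peaks shared 1 value, 3.57 (values were matched to 4 decimals and are printed rounded), 135 had 3.21 and 118 had 5.0. In the second column 129 had 5.09, 126 had 5.45 and 116 had 4.72. The 8 commonest values of each column were held by 919 members in the first (23.8%) and 823 in the second (21.3%), against 251 (8.50%) and 216 (7.31%) of the other vehicle peaks.

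By annotation of any kind, 466 members lay in long non-coding RNA genes (12.1%, interval 11.1 to 13.1%), against 280 other vehicle peaks (9.48%, interval 8.45 to 10.6%). Annotation gaps hold no gene by construction, and outside them the shares were 17.0% in each set (15.6 to 18.5% and 15.2 to 18.9%). No member covered a transfer RNA or small nuclear RNA gene (interval up to 0.0956% for each). Of the other vehicle peaks, 5 covered a transfer RNA gene (0.169%, interval 0.0550 to 0.395%). A small nuclear RNA gene was covered by 4 (0.135%, interval 0.0369 to 0.346%). The intervals of both sets overlapped.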
